A study of Mus musculus with 6 samples.

Results

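Klf2, Klf4, Klf5, Esrrb, Tfcp2l1, Nr5a2, Tbx3 and Zfp42 encode transcription factors of the naive pluripotent state, and SALL4 occupancy was described in and around these 8 genes, out of 21900 coding genes of the gene table. Members were chosen by name, and every SALL4 interval that overlapped the gene body or the 50 kb on either side of it was taken. SALL4 was mapped in mouse embryonic stem cells by CUT&RUN, which uses an antibody to bring a nuclease to its target in permeable cells and sequences the DNA that is cut free. The wild-type group was a line with both Sall4 alleles floxed but intact (Sall4F/F), the knockout group was a line lacking Sall4 (Sall4-/-), and both were grown in 2i + LIF medium, that is, with inhibitors of the MEK and GSK3 kinases and the cytokine LIF. There were 2 SALL4 libraries per line, and 1 IgG library per line that was not analysed here. Each genotype is 1 line, so that a difference between the lines other than Sall4 cannot be told apart from the loss of Sall4. The labels do not say whether the replicates came from separate cultures. RNA was not measured, so the level of the 8 genes and the cell type label could not be checked.

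Naive pluripotent cells correspond to the epiblast of the blastocyst before implantation. In culture this state is held by a network of transcription factors beside the core factors OCT4, SOX2 and NANOG. LIF acts through STAT3 on Klf4 and Tfcp2l1, and inhibition of GSK3 relieves repression of Esrrb. Inhibition of MEK stabilises KLF2 protein. Members of the network bind near each other's genes and near their own, commonly at enhancers kilobases away from the promoter. SALL4 is a zinc-finger DNA-binding protein of the same cells, known for binding to AT-rich sequence and for recruiting the NuRD co-repressor complex.

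The promoters where SALL4 intervals were found come first, because they are the sites whose letters can be read here. The RefSeq promoter table (GRCm38.p6) held 8 entries for 6 of the 8 members and none for Klf5 and Tbx3. Of these 8 entries, 2 overlapped a region found in both wild-type lists, 1 at Zfp42 and 1 at the second listed start of Nr5a2, against 3.12% of all 32851 entries of the table (each from 250 bases before to 50 after a start). The first listed start of Nr5a2, which had no region, is shown beside them. Each sequence gives the 250 bases before a start, 5′ to 3′ on the gene's strand, and capitals mark the motif matches.
Zfp42, chr8:43307010-43307259, minus strand: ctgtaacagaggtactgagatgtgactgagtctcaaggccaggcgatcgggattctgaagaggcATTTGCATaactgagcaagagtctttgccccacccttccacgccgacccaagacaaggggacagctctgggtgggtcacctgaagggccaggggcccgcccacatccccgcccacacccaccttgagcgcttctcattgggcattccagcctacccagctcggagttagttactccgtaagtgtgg
Nr5a2, second listed start, chr1:136953631-136953880, minus strand: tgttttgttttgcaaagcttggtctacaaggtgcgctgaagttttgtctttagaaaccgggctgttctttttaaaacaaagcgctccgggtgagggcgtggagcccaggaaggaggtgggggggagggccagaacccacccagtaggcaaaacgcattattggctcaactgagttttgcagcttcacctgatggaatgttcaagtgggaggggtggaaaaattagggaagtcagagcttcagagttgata
Nr5a2, first listed start, chr1:136960449-136960698, minus strand: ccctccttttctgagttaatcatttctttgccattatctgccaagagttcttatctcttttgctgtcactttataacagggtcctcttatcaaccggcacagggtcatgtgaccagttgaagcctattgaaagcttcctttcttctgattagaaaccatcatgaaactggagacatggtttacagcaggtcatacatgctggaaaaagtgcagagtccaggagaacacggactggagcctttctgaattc

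The motifs searched on both strands were ATATT and AATATT (AT-rich letters of the SALL4 zinc fingers, the first contained in the second), ATGCAAAT (the octamer of POU factors such as OCT4), CATTGT (SOX factors), TCAAGGTCA (ESRRB and NR5A2) and GGGNGTGGC (KLF factors). The Zfp42 promoter held the octamer, 186 to 179 bases before the start, in the orientation ATTTGCAT. The same letters occurred in 1.60% of the 32851 entries of the table. The summit of the SALL4 interval lay 83 bases before the Zfp42 start in replicate 1 and 147 bases before it in replicate 2, so that the middle of the octamer was 99.5 and 35.5 bases from the summits. None of the 6 motifs was found in either Nr5a2 promoter. ATATT was found in none of the 8 entries of the members and in 23.3% of all entries, and GGGNGTGGC was found in 1 of the 8, that of Tfcp2l1, and in 5.11% of all. A match describes letters and does not show a bound site.

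The A+T content of the 250 bases was 41.6% at Zfp42, 50.4% at the second start of Nr5a2 and 56.8% at its first start. At the other entries without a region it was 28.8% at Klf2, 26.0% at Klf4, 34.8% at Tfcp2l1, and 39.2% and 48.0% at the first and second start of Esrrb. The median over all entries was 47.6%. The A+T content of the 2 entries with a region thus lay within the range of the 6 without one.

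The wild-type lists held 55058 and 48295 merged intervals in replicates 1 and 2 and the knockout lists 34 and 39, all of the latter on X or Y. In the Sall4 gene itself each wild-type list held 5 intervals and each knockout list 0. The lists carry no read totals. The number of fragments covering each summit (its pileup) was recovered as a whole number from the fold enrichment and p-value for 100% of the intervals, with a median of 9 in both wild-type lists. Fold enrichment is the authors' value and divides the pileup plus 1 by the local background plus 1 at the summit.

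Around the 8 genes, wild-type replicate 1 had 124 intervals and replicate 2 had 119, and both knockout libraries had 0. At each of the 8 genes both wild-type libraries therefore lay above both knockout libraries. Since all knockout intervals were on X or Y, a knockout count of 0 holds around any autosomal gene, and all 8 are autosomal. The share of coding genes with both wild-type counts above both knockout counts was not computed. By a different measure, 68.6% of coding genes had, in or within 50 kb of the gene, at least 1 interval that both wild-type replicates shared and no knockout interval touched. The mean was 121.5 ± 3.54 intervals (SD, n = 2) in wild type. As log2 of the count plus 1, wild type exceeded knockout by 6.94, with an SD of 0.0416 between the wild-type libraries. Over the 4 libraries an exact permutation test (two-sided) returned p = 0.333, and no smaller p is possible with 2 against 2. The weakest interval had a −log10 p of 7.63 and 7.12 in the knockout lists and 3.55 and 3.60 in the wild-type lists, so the lists did not end at the same p. With the wild-type lists cut at 7.63, an alternative added once the data had been seen, 73 intervals of replicate 1 and 62 of replicate 2 were left around the 8 genes, with no gene under 5 in either. The plot of counts by gene gives every library.

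**Figure D1:**
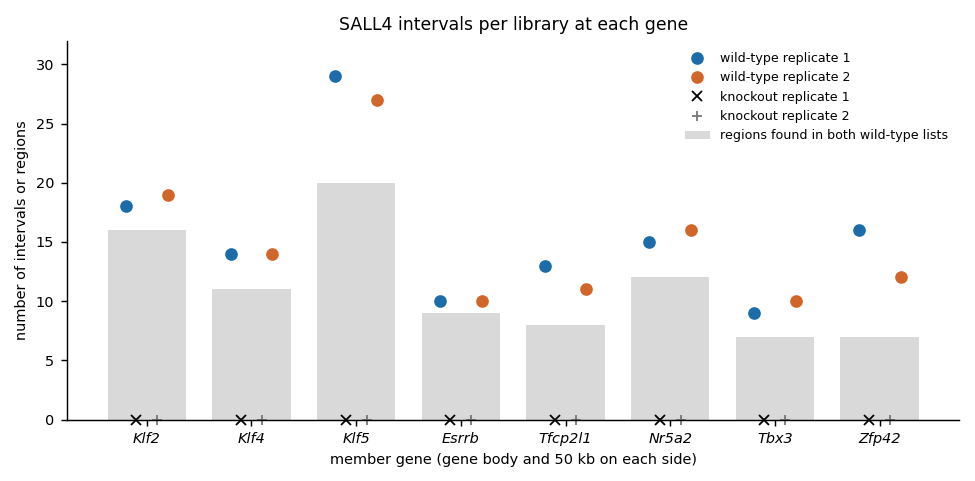
Number of SALL4 intervals (y axis) in the gene body and 50 kb on each side of the 8 genes (x axis), with 1 point per library, and grey bars for the regions found in both wild-type lists. Wild-type points lie between 9 (Tbx3, replicate 1) and 29 (Klf5, replicate 1), and all knockout points lie at 0.

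Of the 124 intervals of replicate 1, 92 overlapped an interval of replicate 2 by at least 1 bp, which is 74.2% (95% Wilson interval 65.8 to 81.1, counting error only) against 70.4% of that whole list. Of the 119 intervals of replicate 2, 92 were found in replicate 1, which is 77.3% (69.0 to 83.9) against 79.3% of that whole list. The agreement around the 8 genes was close to that of the whole lists. The intervals that were not shared were weak, with median folds of 4.64 and 4.53 and none above 7.58. All 28 intervals of replicate 1 and all 26 of replicate 2 with a fold of at least 10 were found in the other replicate.

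Joined across the replicates, these intervals formed 90 regions, called consensus regions here, of 37997 in the genome that both wild-type replicates shared and that no knockout interval touched. Their widths ran from 108 to 1563 bp with a median of 356.5 bp, and their pileups from 4 to 56 fragments in replicate 1 and from 4 to 50 in replicate 2. Summits inside the gene body made up 27 of the 90, which is 30.0%, and the gene bodies made up 32.5% of the length of the windows. With 10 kb flanks the shares were 55.1% of regions and 70.6% of length, and with 100 kb flanks 22.0% and 19.4%, so how the 2 shares compare depends on the flank. Their mean folds had a median of 6.57 against 6.84 over all consensus regions. A fold of at least 10 in both replicates was reached by 21 of the 90, which is 23.3% against 21.2% of all consensus regions. By the median and by this share the regions were thus near the background, though 9 of the 21 lay at Klf5 alone. In the upper tail, 15 of the 90 stood in the top 10% of all consensus regions by mean fold and 2 in the top 1%. The 95% exact Poisson intervals of the pileups, put on the fold scale, overlapped between the replicates at 89 of the 90 regions, as the plot of the replicates shows. The folds were nevertheless shifted one way, being lower in replicate 2 at 59 of the 90, with a median log2 difference (replicate 2 minus replicate 1) of -0.16 against -0.13 over all consensus regions.

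**Figure D2:**
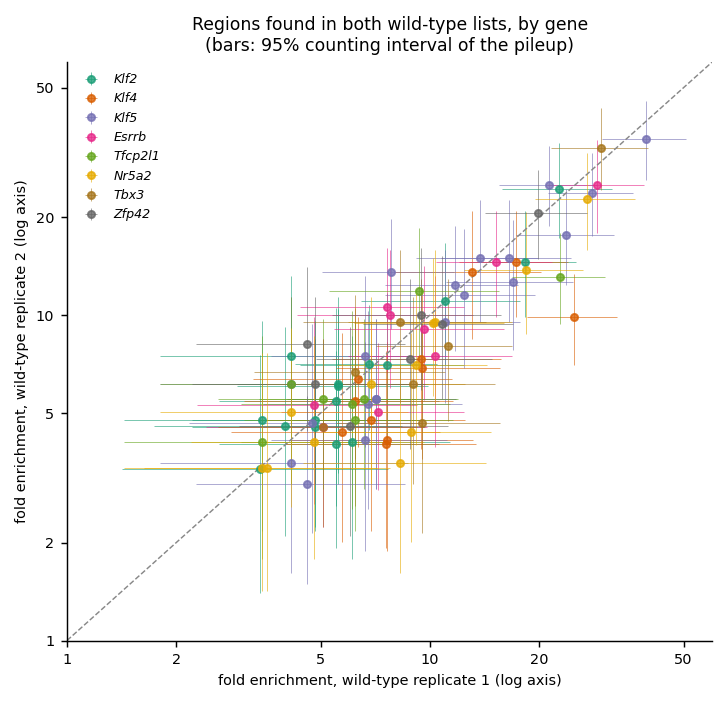
Fold enrichment in wild-type replicate 1 (x, log axis) against replicate 2 (y, log axis) at the 90 consensus regions, coloured by gene, with bars for the 95% counting interval of the pileup and a dashed line of equality. The point farthest below the line is the Klf4 region with folds of 24.9 and 9.84, and the highest is the Klf5 region with 39.3 and 34.7.

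All 8 genes had consensus regions in or within 50 kb of the gene, against the 68.6% of coding genes given above. A region lay in the gene body of 6 of the 8, against 26.8% of coding genes, and within 1 kb of a listed start (of an end of the gene where none was listed) at 4 of the 8, against 6.34%. The gene bodies ran from 2.59 to 161 kb in length. The coding genes were not matched for length, and a longer gene has more room for a region, which limits the comparison of gene bodies. These are descriptions of named genes and were given no test.

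The first group is the KLF family, zinc-finger proteins that bind GC-rich CACCC-type sequence and can in part replace each other in stem cells. Klf5 had 20 regions and Klf2 16, the highest counts of the 8 genes, and Klf4 had 11, against 12 at Nr5a2. Nearly all lay outside the gene bodies, 1 of 20, 0 of 16 and 1 of 11 being inside. The gene body was also a small part of each window. It made up 14.7 of 114.7 kb at Klf5, 2.59 of 102.6 kb at Klf2 and 5.34 of 105.3 kb at Klf4. The map of the 8 windows shows these regions as dense rows beside short genes.

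**Figure D3:**
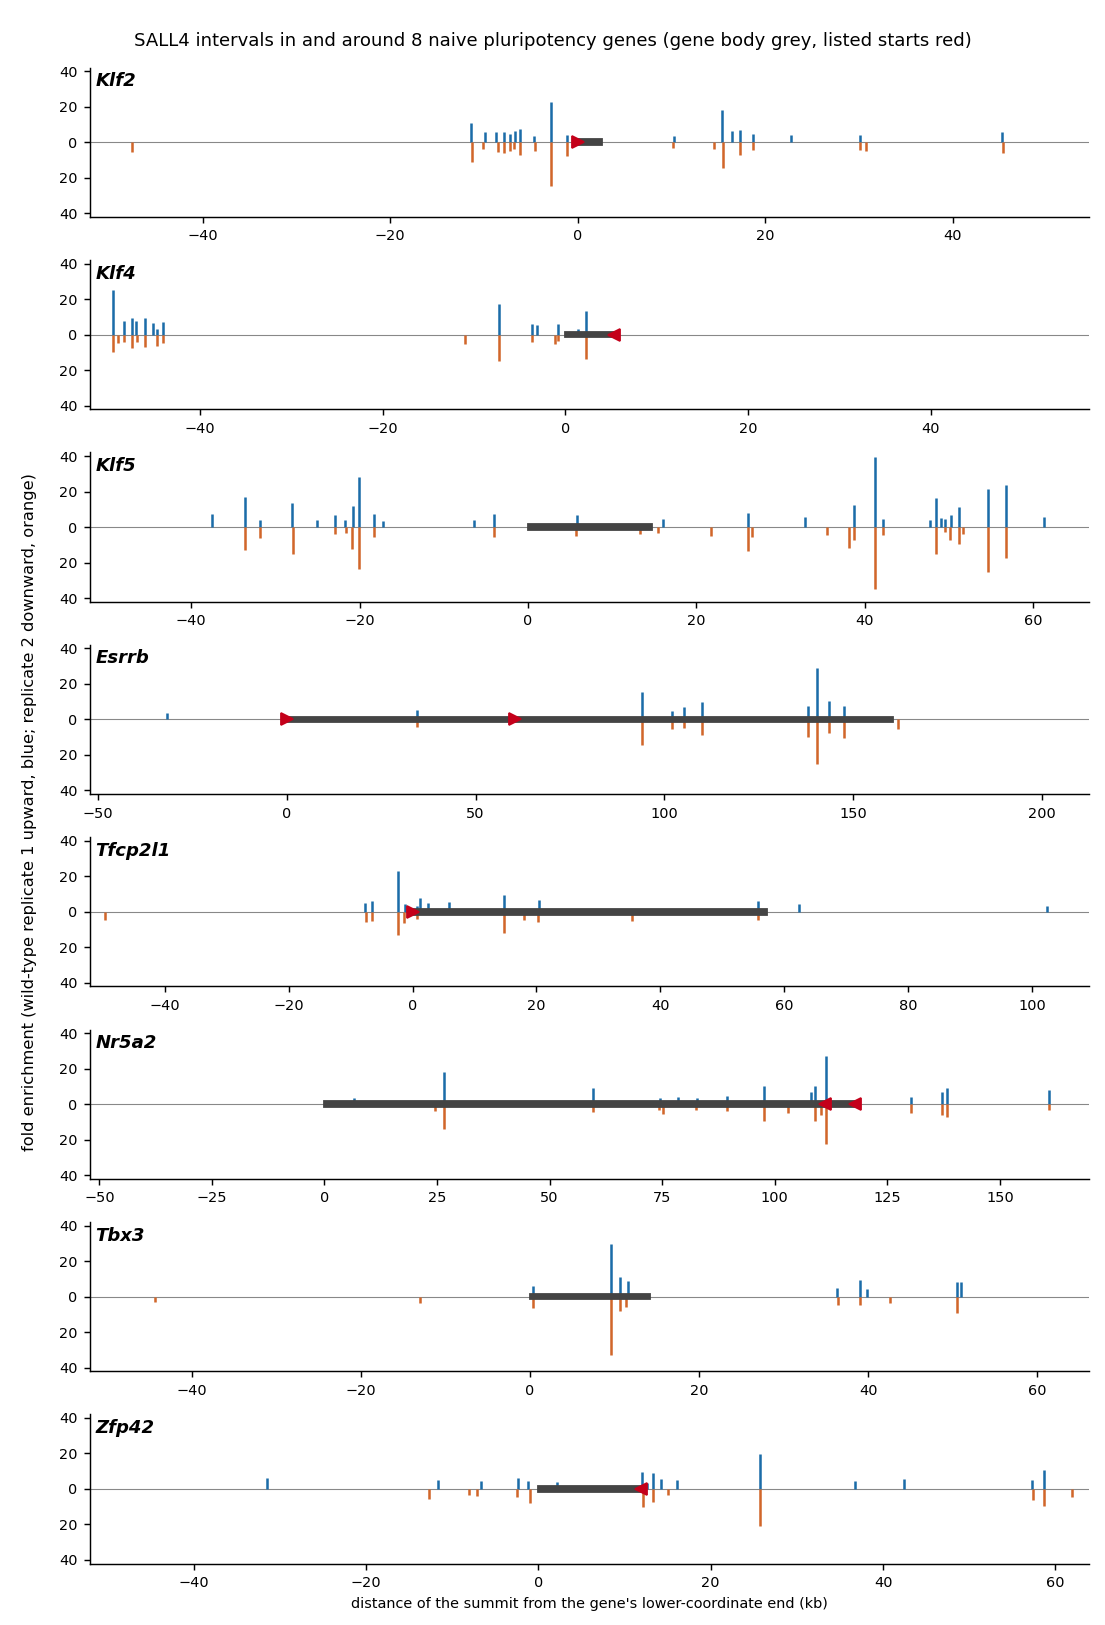
SALL4 intervals of wild-type replicate 1 (blue, upward) and replicate 2 (orange, downward) by distance of the summit from the gene's lower-coordinate end (x, kb) and fold enrichment (y), 1 panel per gene, with the gene body in grey and listed starts as red arrowheads in the direction of transcription (none listed for Klf5 and Tbx3). The tallest pair in the Klf2 panel lies 2.86 kb before the start, in the Esrrb panel 140 kb after the first start, and at Klf5 26.5 kb beyond the gene; knockout lists had 0 intervals in all panels.

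Klf2 (gene ID 16598, chr8:72319062-72321654, plus strand) had 18 intervals in replicate 1 and 19 in replicate 2. Of its 16 consensus regions, 10 lay upstream in a single stretch of 10.5 kb, chr8:72307564-72318108, and 6 downstream. The strongest was chr8:72315928-72316467, with its summit 2.86 kb before the start. Its fold was 22.7 in replicate 1 (95% counting interval 15.8 to 31.8, 32 fragments) and 24.5 in replicate 2 (17.3 to 33.8, 35 fragments). It ranked 991st of the 37997 regions by mean fold. The next was chr8:72333780-72334762, 12.8 kb past the gene, with folds of 18.3 and 14.6, and the third was chr8:72307564-72307965, 11.2 kb upstream, with 11.0 and 11.1. The replicates thus had the same 3 leading regions within their counting error. The region nearest to the start, chr8:72317916-72318108, was weak, with folds of 4.13 and 7.48, and its summit lay 1.09 kb before the start, just past the 1 kb limit used above. Regions 27.5 and 42.7 kb downstream lay in the neighbouring coding gene Eps15l1, with mean folds of 4.28 and 5.85.

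Klf4 (gene ID 16600, chr4:55527137-55532475, minus strand) encodes one of the original reprogramming factors. It had 14 intervals in each wild-type replicate. Of 11 consensus regions, 10 lay downstream, 1 in the gene and 0 upstream. The window ended within a dense stretch, chr4:55477303-55483205, with 7 regions 44.0 to 49.5 kb past the gene. Its outermost region, chr4:55477303-55477893, had folds of 24.9 in replicate 1 (18.5 to 32.8) and 9.84 in replicate 2 (7.03 to 13.4). These intervals did not overlap, the single such case among the 90 regions. They carry the counting error of the pileup only and hold the local background fixed. The pileups of 48 and 38 fragments were closer than the folds, while the recovered local backgrounds were 0.968 and 2.96 fragments. The second, chr4:55519653-55520063, lay 7.30 kb past the gene with folds of 17.3 and 14.6. The third, chr4:55529175-55529579, lay inside the gene, 3.06 kb after the start, with folds of 13.1 and 13.6.

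Just inside the 50 kb limit, at 49.5 kb, was the Klf4 region described above. Just outside it, at 50.4 kb, chr4:55476691-55476833 had folds of 3.44 and 4.76, and at 51.4 kb chr4:55475178-55476542 had folds of 41.2 and 44.0. The latter ranked 9th of the 37997 consensus regions by mean fold and had a higher mean fold than any of the 90 inside the windows. At Klf5, the nearest region past the limit was chr14:99363965-99364505, 50.8 kb from the gene, with folds of 15.8 and 18.4.

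Klf5 (gene ID 12224, chr14:99298691-99313412) had 29 intervals in replicate 1 and 27 in replicate 2, the most of the 8 genes in each replicate. Its strand was not listed, so sides are given by coordinate. Of 20 consensus regions, 9 lay on the lower side, 1 in the gene and 10 on the higher side. The strongest, chr14:99339112-99340674, lay 26.5 kb beyond the higher end. Its fold was 39.3 in replicate 1 (29.8 to 50.8, 56 fragments) and 34.7 in replicate 2 (25.9 to 45.5, 50 fragments). At 1563 bp it was the widest of the 90, with 5 summits in replicate 1 and 2 in replicate 2, and it ranked 46th genome-wide. The second, chr14:99278484-99278913, lay 20.1 kb before the lower end with folds of 27.9 and 23.6. The third, chr14:99353107-99354438, lay 39.9 kb beyond the higher end with folds of 21.3 and 25.1. The region inside the gene, chr14:99304254-99304618, was weak, with folds of 6.76 and 5.34. Klf5 held 9 of the 21 regions with a fold of at least 10 in both replicates, against 3 at Klf2 and 2 at Klf4.

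The second group is the orphan nuclear receptors Esrrb and Nr5a2, which bind closely related sequences. At Esrrb all 9 consensus regions lay inside the gene, and at Nr5a2 8 of 12 did. These are also the longest genes of the 8. Their bodies made up 160.5 of 260.5 kb of window at Esrrb and 117.9 of 217.9 kb at Nr5a2. Whether the place of regions differs from window length at single genes was not tested. Exons and introns were not told apart, since the gene table used here lists whole genes.

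Esrrb (gene ID 26380, chr12:86361117-86521628, plus strand) had 10 intervals in each wild-type replicate. No consensus region lay before the first start or beyond the gene. The promoter table lists starts at 86361117 and 86421644, and the region nearest to both lay 34.5 kb after the first and 26.0 kb before the second, with folds of 5.08 and 4.53. The other 8 regions lay 94.1 to 148 kb after the first start. The strongest, chr12:86501048-86502334, lay 140 kb after it. Its fold was 28.9 in replicate 1 (21.0 to 39.0, 41 fragments) and 25.2 in replicate 2 (17.8 to 34.6, 36 fragments), and it had 3 summits in each replicate. The second, chr12:86455014-86455366, had folds of 15.2 and 14.6, and the third, chr12:86470916-86471312, had 9.64 and 9.05. Each replicate also had 1 weak interval outside the gene body that the other lacked, with folds of 3.56 and 5.53.

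Nr5a2 (gene ID 26424, chr1:136842562-136960448, minus strand) encodes LRH-1, which can stand in for OCT4 in reprogramming. It had 15 intervals in replicate 1 and 16 in replicate 2. Of 12 consensus regions, 8 lay in the gene, 4 upstream of the first start and 0 downstream. The strongest, chr1:136953518-136954288, covered all 250 bases printed above for the second listed start. Its summits lay 274 bases before that start in replicate 1 and 261 bases before it in replicate 2, about 6.54 kb after the first start in replicate 1. Its fold was 27.0 in replicate 1 (19.4 to 36.7, 39 fragments) and 22.7 in replicate 2 (15.8 to 31.6, 33 fragments). The second, chr1:136868904-136869414, lay 91.3 kb after the first start with folds of 18.4 and 13.8, and the third, chr1:136951345-136951719, lay 8.94 kb after it with folds of 10.3 and 9.52. Of the 6 genes with a listed start, Nr5a2 alone had its strongest region within 1 kb of one.

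Tfcp2l1 (gene ID 81879, chr1:118627923-118685168, plus strand), a CP2-family factor and target of STAT3, had 13 intervals in replicate 1 and 11 in replicate 2. Of 8 consensus regions, 4 lay upstream and 4 in the gene. In a single list the count was higher, 13 in replicate 1 alone. The strongest, chr1:118625415-118625948, lay 2.36 kb upstream. Its fold was 22.9 in replicate 1 (16.9 to 30.4, 46 fragments) and 13.1 in replicate 2 (9.37 to 17.9, 38 fragments), with recovered local backgrounds of 1.05 and 1.98 fragments. The second, chr1:118642566-118643079, lay 14.8 kb into the gene with folds of 9.34 and 11.8, and the third, chr1:118648014-118648503, lay 20.4 kb into it with 6.59 and 5.53. A region near the start, chr1:118628574-118628877, had its summits 677 and 768 bases after the listed start and folds of 3.44 and 4.08 from 4 and 5 fragments. These are at and next to the lowest pileup of the wild-type lists, 4 fragments.

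Tbx3 (gene ID 21386, chr5:119670534-119684724), a T-box factor, had 9 intervals in replicate 1 and 10 in replicate 2. Of 7 consensus regions, 4 lay in the gene and 3 on the higher-coordinate side. The strongest, chr5:119679457-119680298, lay inside the gene, 9.57 kb from its lower end. Its fold was 29.6 in replicate 1 (21.5 to 39.8, 42 fragments) and 32.6 in replicate 2 (24.2 to 43.2, 47 fragments), and it ranked 231st genome-wide. Beside it in the gene, chr5:119681090-119681378 had folds of 11.2 and 8.05. The third, chr5:119720928-119721752, lay 36.3 kb beyond the gene with folds of 8.26 and 9.52. Another region, chr5:119670812-119670967, lay 326 bp inside the lower end, with folds of 6.23 and 6.67, where the gene overlaps the long non-coding RNA gene Tbx3os1. Since no start was listed for Tbx3, either end was allowed for the count of regions at a start, and this is the region counted.

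Zfp42 (gene ID 22702, chr8:43295067-43307009, minus strand) encodes REX1, the zinc-finger protein whose reporter is widely used to mark the naive state. It had 16 intervals in replicate 1 and 12 in replicate 2, of which 7 in each were shared, so that a single list gave 16 or 12 where the consensus gave 7. This was the lowest sharing of the 8 genes. None of the 7 regions lay in the gene, 5 lying upstream and 2 downstream. The strongest, chr8:43320481-43321295, lay 13.8 kb upstream. Its fold was 19.8 in replicate 1 (14.2 to 27.0, 38 fragments) and 20.6 in replicate 2 (14.9 to 27.9, 40 fragments). The second, chr8:43353627-43354081, lay 46.8 kb upstream with folds of 10.8 and 9.42. The third, chr8:43306929-43307233, was the promoter region printed above, with folds of 9.46 and 10.01 from 13 and 15 fragments. It covered 224 of the 250 bases in replicate 1 and 175 in replicate 2. The neighbouring region chr8:43308288-43308540 lay 1.37 kb upstream with folds of 8.79 and 7.34.

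Across the 8 genes, the strongest region lay inside the gene at Esrrb, Nr5a2 and Tbx3 and outside it at the other 5. The mean folds of these 8 regions ran from 17.4 at Klf4 to 37.0 at Klf5. The leading region was the same in each replicate alone at 7 genes. At Klf4 it led in replicate 1 but was behind chr4:55519653-55520063 (14.6) and chr4:55529175-55529579 (13.6) in replicate 2, so the leader there rests on replicate 1. The pileups of these 8 leading regions were 32 to 56 fragments, and the weakest of them stood in the top 7.56% of all consensus regions. Each was picked as the highest of 7 to 20 regions by the same mean fold, so a high place follows in part from the choice. This also holds for the genome-wide ranks given for Klf2, Klf5 and Tbx3. The counting intervals of the leading regions of Klf2, Esrrb, Nr5a2, Tbx3 and Zfp42 overlapped each other in both replicates, so their order is not resolved. Within 10 kb of the gene, the gene body included, lay 10 regions at Klf2, 9 at Esrrb, 8 each at Tfcp2l1 and Nr5a2, 4 each at Klf4, Tbx3 and Zfp42, and 2 at Klf5. The mean folds of these near regions ran from 3.38 to 23.6 at Klf2, 4.80 to 27.0 at Esrrb, 3.76 to 18.0 at Tfcp2l1, 3.42 to 24.9 at Nr5a2, 5.05 to 15.9 at Klf4, 6.45 to 31.1 at Tbx3, 5.29 to 9.74 at Zfp42 and 6.05 to 6.32 at Klf5. The genes with a region at a start were Zfp42, Nr5a2, Tfcp2l1 and, at an end, Tbx3. At a −log10 q of at least 10 in both replicates 2 of these 4 remained, and at a fold of at least 10 in both 1 did.

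Because the windows differ in length, regions were also counted per 10 kb of window. The density was 1.74 at Klf5, 1.56 at Klf2, 1.04 at Klf4, 0.625 at Zfp42, 0.613 at Tbx3, 0.551 at Nr5a2, 0.509 at Tfcp2l1 and 0.345 at Esrrb. Over all coding genes the median was 0.0970 and the 95th percentile 0.657. All 8 genes exceeded the median of coding genes and 3, the KLF genes, exceeded the 95th percentile. The set above the 95th percentile changed with the setting. Zfp42 and Tbx3 joined the KLF genes without replicate 1 and at a −log10 q of at least 10 in both replicates, and Zfp42 joined them without replicate 2. With 10 kb flanks the 5 genes above it were Klf2, Klf4, Tfcp2l1, Tbx3 and Zfp42, while Klf5, with 0.576 regions per 10 kb against a 95th percentile of 0.860, was not among them. With 100 kb flanks the KLF genes and Tbx3 were above it. The share of coding genes with a lower density was 99.8% for Klf5, 99.7% for Klf2, 98.9% for Klf4 and 82.2% for Esrrb, the lowest of the 8. The median of the 8 was 0.619, and it was 0.974 without replicate 1 and 1.08 without replicate 2, where regions need to be present in 1 list only. Windows of neighbouring genes share regions, so coding genes are not independent of each other.

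**Figure D4:**
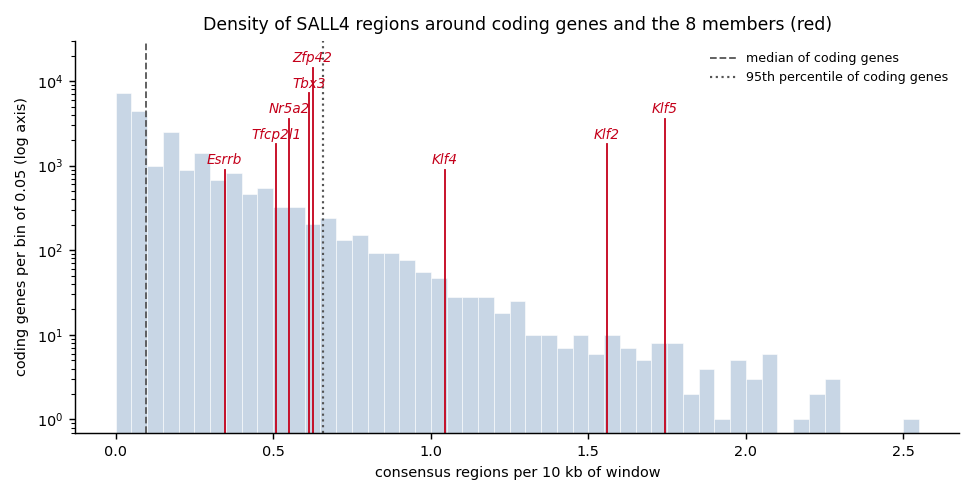
Consensus regions per 10 kb of window (x) for 21900 coding genes, as the number of genes per bin of 0.05 (y, log axis), with red lines for the 8 members (their height only separates the names). The dashed line is the median of coding genes, 0.0970, and the dotted line their 95th percentile, 0.657, which Klf4, Klf2 and Klf5 exceed.

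The same counts were made for 11 other genes of the core and naive networks. Consensus regions in or within 50 kb of the gene numbered 15 at Prdm14, 10 at Dppa5a, 9 at Sox2, 8 each at Nanog and Dppa3, 5 each at Stat3 and Fgf4, 4 at Nr0b1, 3 at Gbx2, 2 at Tcl1 and 1 at Pou5f1. Both knockout lists had 0 at all 11. A region lay in the gene body of 4 of the 11, against 26.8% of coding genes, and within 1 kb of a start of 4, against 6.34%. Their median density was 0.481 per 10 kb, and 10 of the 11 exceeded the median of coding genes, Pou5f1 with 0.0955 being below it. Prdm14 (1.32), Dppa5a (0.989), Sox2 (0.878), Dppa3 (0.770) and Nanog (0.747) also exceeded the 95th percentile of coding genes, 0.657. The rest of the 11 did not. A density above that percentile was therefore not particular to the KLF genes. Nanog and Dppa3 lie close together and their windows overlap. The 8 naive factors had a median of 0.619, the ranges of the lists overlapped (0.0955 to 1.32 here, 0.345 to 1.74 there), and no test of the difference was made.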

How the data were processed

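CUT&RUN peak lists of 4 SALL4 libraries were used, 2 from the floxed and 2 from the knockout line, grouped by sample title. The peak names inside the list of wild-type replicate 2 spell its genotype KWT, where those of replicate 1 have WT, and the title was followed. Of the 6 samples, the 2 IgG samples were not analysed here. Per the submitters' processing notes, Trim Galore 0.6.0, cutadapt 1.18, FastQC 0.11.8, BWA 0.7.17 and MACS2 2.1.1.20160309 were used, with builds named as GRCm38 and mm10. Settings and the control of the peak calling are not given in the sources used here. Each list was called on 1 sample. Of the deposited columns, fold enrichment is a ratio of summit to local background. The authors' −log10 p-value and, after adjustment, −log10 q-value are given per summit, and their score is 10 times the latter, cut to a whole number. These values depend on each library's depth and on the control, and no scaling between lists was applied. Regions were ranked by the mean of both wild-type folds, and comparisons of folds between the replicates include any difference of scale.

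Overlapping lines of a list were merged, keeping the line with the highest fold. Gene positions came from a RefSeq table of GRCm38.p6 without exons. Starts and strands came from its promoter table, with both gene ends used where it had no entry. Consensus regions overlapped by at least 1 bp. Places were assigned by the summit of the stronger replicate. Pileups were recovered within 0.0001 in −log10 p and the procedure was tested on simulated data. Per member, the 3 regions with the highest mean fold were named by position, and all regions up to 10 kb from the gene body, or inside it, were given by count and range of mean fold, some also by position. The planned A+T content and motifs at summits were not run, as no genome sequence was used here, and promoter sequences replaced them. A gene of the planned list of other pluripotency genes is not reported here and was left out of that list's counts. Members, gene lists and tests were chosen with earlier results of these data known. Alternatives covered stricter q-values and folds, the overlap, the flank, the distance to a start, each replicate left out and pairing by replicate number. Python 3.11.15, numpy 2.4.6, scipy 1.17.1, pandas 2.3.3 and matplotlib 3.10.9 were used.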

Additional observations from a re-analysis of the deposited data

How the results depend on the processing

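The log2 excess of wild-type intervals around the 8 genes ranged from 4.81 at a fold of at least 10 to 7.37 with 100 kb flanks. With both knockout lists at 0 in the windows its direction could not turn, so this range says nothing about stability. Pairing libraries by number (a replicate block) left it at 6.94, and flipping signs over the 2 pairs gave an exact p of 0.5, below which such a test cannot go. For the same reason, whether same-numbered libraries deviate together could not be checked. The 90 consensus regions became 33 at a −log10 q of at least 10 in both replicates, 21 at a fold of at least 10 in both and 49 with 10 kb flanks, fewer by construction. The median density of 0.619 per 10 kb became 0.265, 0.0906 and 1.10 under the same settings and 0.520 with summits within 100 bp, and ranged from 0.974 to 1.08 with one wild-type replicate left out. All 8 genes stayed above the coding median in each of these but the summit setting, for which it was not computed, and that median was 0 at the strict q-value, at the strict fold and with 10 kb flanks. The share of regions inside the genes, 30.0%, became 33.3% at the strict q-value, 28.6% at the strict fold, 34.6% with a reciprocal overlap of 50%, 32.5% with summits within 100 bp, 55.1% with 10 kb flanks and 22.0% with 100 kb flanks, and ranged from 28.2% to 28.6% with one replicate left out. Of the 4 genes with a region at a start, 2 were left at the strict q-value and 1 at the strict fold. On average 75.8% of a replicate's intervals had a match in the other, and this became 86.7% at the strict q-value, 64.2% when a reciprocal overlap was asked for and 63.4% when summits had to lie within 100 bp. The weakest regions rest on pileups of 4 fragments, and intervals that 1 list lacked were weak throughout, with folds of at most 7.58.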

Other observations

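Between 50 and 100 kb from the genes lay 33 further consensus regions, 12 of them at Tbx3, 9 at Klf5, 8 at Klf4, 2 at Klf2, 1 each at Tfcp2l1 and Nr5a2, and 0 at Esrrb and Zfp42. At Tbx3 all 12 lay on the lower-coordinate side, where the 50 kb window held 0 regions. The strongest, chr5:119584611-119585548, lay 85.2 kb from the gene with folds of 28.7 and 21.8 in replicates 1 and 2. At Klf4 all 8 lay downstream, on the side that held 10 of its 11 regions, and 4 of them had a fold of at least 10 in both replicates. Besides the region at 51.4 kb, chr4:55464037-55464989 lay 62.7 kb past the gene with folds of 19.97 and 22.4.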
